A study of Homo sapiens
Mus musculus and Mus musculus and Homo sapiens with 3 samples.

Results

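KRT8 and KRT18 rich cells were a small set of 122 among the 8683 cells that passed the filters in a single-cell survey of motor neuron differentiation. They were chosen by their own transcript counts: at least 3 unique molecular identifiers (UMIs) of KRT8, at least 3 of KRT18 and none of the collagen gene COL1A2. The set was split by SOX2, a transcription factor of neural progenitors. 93 cells had at least 1 SOX2 UMI and are called SOX2-positive, and 29 had none and are called SOX2-negative. The comparison group was the 4395 SOX2-positive cells without a UMI of either keratin, called keratin-free below.

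Keratins 8 and 18 pair into the intermediate filaments of simple epithelia and are among the first keratins made by the embryo. Neural progenitors of the spinal cord carry vimentin and nestin filaments instead. The floor plate is a strip of neural cells at the ventral midline that makes the signal Sonic hedgehog (SHH), and motor neuron progenitors, which carry the transcription factor OLIG2, arise near it under that signal. Caudal progenitors, which carry CDX genes, supply the growing tail end of the spinal cord.

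Motor neurons were induced from human and mouse pluripotent cells grown as embryoid bodies, a culture of floating cell aggregates. All cells had received a lentivirus with GFP driven by the CAGGS promoter and a 6 bp barcode, and, once dissociated by papain with DNase I, were sorted for GFP before 10x 3' sequencing. 1 mixed library gave human replicate 1 (the iPS line NCRM1) and mouse replicate 1 (C57BL/6 ES cells) as its species parts. Human replicate 2 (RUES1, called an iPS line in the labels) and mouse replicate 2 (C57BL/6) were libraries of their own. Cells were collected every 48 h in human and every 24 h in mouse, but the files gave no collection time per cell. Each human line is 1 line, the labels do not state whether the mouse libraries came from separate cultures, and the p-values below measure only the spread between these libraries.

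After filtering, human replicates 1 and 2 held 2332 and 1829 cells and mouse replicates 1 and 2 held 1816 and 2706. The deposited files summed to between 28577630 and 83969715 UMIs. The 60 barcodes present in both parts of the mixed library were left out of both, and 2 more were shared by human and mouse replicates 2, which are separate libraries. Replicates of a species were counted on annotations of different size, from 27999 to 56832 entries. SPON1, for example, is listed in 3 of the parts and was not used in human replicate 1.

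Keratin-rich cells made up 0.943% of human replicate 1 (22 cells, exact Clopper-Pearson 95% interval 0.592 to 1.42%) and 2.84% of human replicate 2 (52 cells, 2.13 to 3.71%). In mouse they made up 0.0551% of replicate 1 (1 cell, 0.00139 to 0.306%) and 1.74% of replicate 2 (47 cells, 1.28 to 2.30%). The intervals cover counting error only. The human mean was 1.89% ± 1.34 (SD, n = 2) and the mouse mean 0.896% ± 1.19 (SD, n = 2). An exact two-sided permutation test over the 4 parts gave p = 0.667 for this difference of 0.997 percentage points, where the smallest p that 2 against 2 allows is 0.333. Both parts numbered 1 come from the same mixed library, so the 4 parts are not fully independent. The human share was the higher one both within that library and between the separate libraries. At a common depth of 7000 UMIs per cell, with shallower cells left out, the shares passing the same gate were 0.361%, 0.747%, 0 of 1749 cells and 1.10% in the same order.

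The share of keratin-rich cells without SOX2 was 18.2% (4 of 22) in human replicate 1 and 1.92% (1 of 52) in human replicate 2. In mouse it was 0 of 1 cell in replicate 1 and 51.1% (24 of 47) in replicate 2. The human and mouse means were 10.1% ± 11.5 and 25.5% ± 36.1 (SD, n = 2 each). An exact two-sided permutation test gave p = 1 for them, but 2 against 2 parts allow no p below 0.333. The test therefore cannot decide whether the species differ in this share. The mouse mean also gives the 1 cell of replicate 1 the same weight as the 47 cells of replicate 2. A SOX2 count of 0 also depends on depth and on the level of SOX2. In SOX2-positive keratin-rich cells SOX2 stood at 271 and 464 CPM (counts per 1e6 UMIs) in the human parts and at 71.4 CPM in mouse replicate 2. After thinning to 7000 UMIs, far below their own depth, a SOX2 UMI was left in 7 of the 23 such mouse cells. The part of detection in the split at full depth was not tested.

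**Figure D1:**
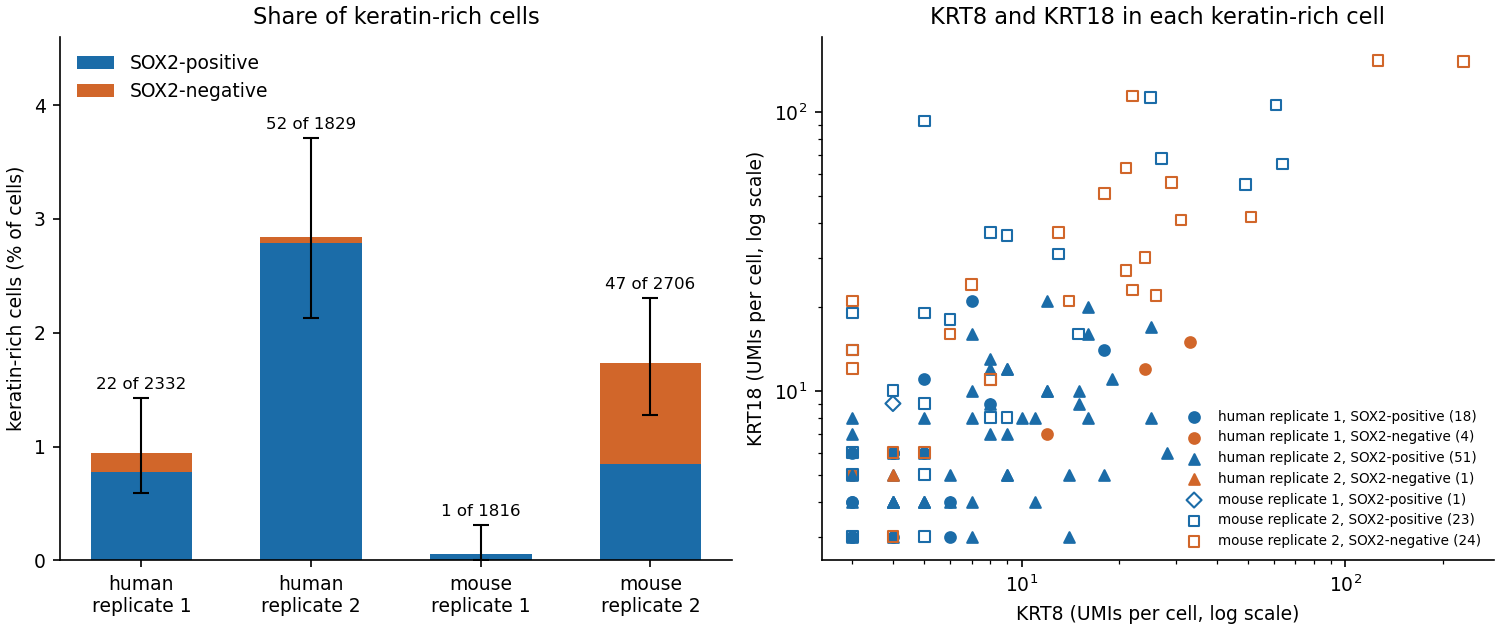
Left, the share of filtered cells that were keratin-rich in each library part, split by SOX2, with exact 95% Clopper-Pearson intervals of the total. Right, the UMIs of KRT8 and KRT18 in each of the 122 cells on log axes. Human replicate 2 has the highest share at 2.84%, mouse replicate 1 has 1 cell, and the cells with the most keratin UMIs are of mouse replicate 2.

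The keratin values below describe what the gate selected and were not tested. In SOX2-positive members KRT8 ran from 3 to 18 UMIs with a median of 4 in human replicate 1, from 3 to 28 with a median of 8 in human replicate 2, and from 3 to 64 with a median of 6 in mouse replicate 2. KRT18 ran from 3 to 21 (median 5.5), from 3 to 21 (median 7) and from 3 to 113 (median 18). The SOX2-negative mouse cells reached the highest counts, with KRT8 from 3 to 231 (median 16) and KRT18 from 3 to 153 (median 23.5). Just inside the threshold, the lower of both counts was exactly 3 in 10 and 8 cells of human replicates 1 and 2, and in 0 and 10 cells of the mouse replicates. Just outside, it was exactly 2 in 48, 33, 3 and 20 cells.

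In GRCh38 the annotated KRT8 gene spans 52897191 to 52949860 on chromosome 12 and KRT18 spans 52948855 to 52952906, so their annotated spans overlap. In GRCm38 both lie on chromosome 15, Krt8 at 101996698 to 102004482 and Krt18 at 102028180 to 102032027. Both genes have processed pseudogenes that could share reads with them, and how such reads were assigned is not given in the sources used here.

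Neurons, defined as cells with at least 5 UMIs of STMN2 and none of SOX2, served as the background for both keratins. There were 450 and 359 such cells in human replicates 1 and 2, and 167 and 455 in the mouse replicates, and 0 passed the gate in each part. These counts of 0 allow shares of up to 0.667%, 0.836%, 1.80% and 0.659%. KRT8 was present in 23.3% and 29.2% of human neurons, at 49.1 and 49.8 CPM, and in 1.80% and 1.32% of mouse neurons. Human neurons were thus not a background free of KRT8. The KRT8 level in SOX2-positive members was 244, 404 and 331 CPM in human replicates 1 and 2 and mouse replicate 2. KRT18 in neurons was at or below 4.27 CPM in all 4 parts, against 316, 331 and 731 CPM in those members.

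Members were deeper than the comparison cells. The median depth of SOX2-positive members was 19926.5, 21240 and 43090 UMIs in human replicates 1 and 2 and mouse replicate 2, against 11369.5, 16451 and 31903 UMIs in keratin-free cells. Mitochondrial UMIs made up a median of 4.47% against 3.36%, 4.50% against 5.47%, and 1.07% against 1.25%. Levels are therefore given as CPM of summed UMIs, and for some genes the share of cells with a UMI is also given after thinning to 7000 UMIs. Shares without a thinned value are not corrected for depth. Scrublet, a doublet caller, marked 1 member, a SOX2-positive cell of mouse replicate 2.

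Of the 4 genes offered as markers, KRT8 and KRT18 chose the cells. DLK1, an imprinted Notch-family ligand, was higher in SOX2-positive members of human replicate 1, at 441 against 90.3 CPM in keratin-free cells. It stood at 81.5 against 47.8 CPM in human replicate 2, where 1 cell held 50.5% of its UMIs and the level without that cell was 41.2 CPM. In mouse replicate 2 it stood at 119 against 143 CPM. SFRP2, a secreted inhibitor of WNT signalling, was at 247 against 187 CPM in human replicate 1, 275 against 356 in human replicate 2 and 57.7 against 250 in mouse replicate 2. SFRP2 was thus above the keratin-free level in human replicate 1 only, and its fitted human log2 fold change was -0.06 (SE 0.20, edgeR adjusted p = 0.99).

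The human comparison of SOX2-positive members with keratin-free cells used counts summed per part and class, with the part as a block, in edgeR's quasi-likelihood test. The fit had 1 residual degree of freedom, which came from the human parts. Of 11971 genes, 418 (3.49%) passed an adjusted p of 0.05, 188 higher (1.57%) and 230 lower (1.92%). The median log2 fold change of all genes was -0.09. By a size rule, a gene was past 2-fold where the CPM with 10 added differed by more than a factor of 2 and at least 10 UMIs were summed. Of 10516 genes measured in both human parts, 16 (0.152%) were past 2-fold higher in both, 77 (0.732%) lower in both and 12 (0.114%) on opposite sides. Among the called genes, 95 were past 2-fold in human replicate 1 alone and 152 in human replicate 2 alone. The calls therefore mix genes that moved in both lines with genes of 1 line, and both values are given for each gene named.

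Transcripts of neurogenesis were lower in the members of both human lines. STMN2, which codes for a microtubule regulator of growing axons, stood at 5.31 CPM in members against 136 CPM in keratin-free cells of human replicate 1. In human replicate 2 it stood at 6.72 against 206 CPM, and the log2 fold change was -4.94 (SE 0.39, edgeR adjusted p = 3.8e-34). CRABP1, a retinoic acid binding protein, was at 10.6 against 114 and 1.68 against 255 CPM (log2 fold change -5.78, SE 0.40, adjusted p = 1.9e-41). NHLH1, a transcription factor of newborn neurons, was at 5.31 against 90.7 CPM, from 2 UMIs in members, and at 0 against 65.7 CPM. NEUROD4, another such factor, was at 0 against 64.6 and 5.88 against 124 CPM. In each of these pairs the member value was below the keratin-free value in both lines. The rule that named these genes required this, so it is not separate evidence of agreement between lines.

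The Notch ligand DLL3 and the cell-cycle gene GADD45G, named by the same rule, belong to the same transition and were lower as well. DLL3 was at 58.4 against 289 CPM in human replicate 1 and 15.1 against 269 in human replicate 2 (log2 fold change -3.31, adjusted p = 3.6e-28). GADD45G was at 10.6 against 167 and 15.1 against 131 CPM (-3.41, adjusted p = 3.8e-24). Of the list of 20 Notch and proneural genes tested, 11 were called lower and 1 higher. The exception was HES1, a Notch target kept on in boundary cells such as the floor plate. It stood at 133 against 150 CPM in human replicate 1 and 409 against 144 in human replicate 2 (log2 fold change 0.75, adjusted p = 0.020), so its call follows human replicate 2. Of 19 neuron genes tested, 16 were called lower and 0 higher. The median log2 ratio of the measured neuron genes (CPM with 10 added) was -1.67 in human replicate 1 and -1.77 in human replicate 2, beside -0.13 and -0.01 over all genes.

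Transcripts of motor neuron progenitors were lower in members too. OLIG2 was at 37.2 against 296 CPM in human replicate 1 and 59.6 against 261 in human replicate 2 (log2 fold change -2.48, SE 0.25, adjusted p = 1.5e-20). HES6 was at 87.6 against 924 and 173 against 926 CPM (-2.86, adjusted p = 9.4e-34), and FABP7, a fatty acid binding protein of radial glia, at 364 against 1345 and 339 against 1017 CPM (-1.77, adjusted p = 1.2e-13). Of 28 neural progenitor genes tested, 13 were called lower and 1 higher. The higher one, SOX21, was at 2.66 against 2.47 CPM in human replicate 1 and 26 against 2.02 in human replicate 2. By the 2-fold size rule, 11 of 26 genes of this list measured in human replicate 1 were lower. There 1 was higher, IRX3, at 87.6 against 15.3 CPM. In human replicate 2, 7 of 27 were lower and 3 higher. PAX6 was at 61.1 against 51.8 and 14.3 against 37.2 CPM and was not called (adjusted p = 0.38). HES5, a Notch target, was at 462 against 422 CPM in human replicate 1 and 385 against 1095 in human replicate 2, and was called lower (-0.76, adjusted p = 0.026), although the lines had opposite directions.

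Several genes were called higher with members above keratin-free cells in both lines, a direction that the naming rule required. SAT1, the rate-limiting enzyme of polyamine breakdown, was at 627 against 100 CPM in human replicate 1 and 257 against 80.6 in human replicate 2 (log2 fold change 2.11, SE 0.21, adjusted p = 5.9e-20). IGF2, an imprinted growth factor, was at 196 against 24.6 and 73.1 against 7.60 CPM (3.09, adjusted p = 1.2e-20). IGFBP5, which binds IGF, was at 101 against 30.3 and 899 against 170 CPM (2.10, adjusted p = 8.4e-18). ID3, a target of BMP signals that blocks differentiation factors, was at 374 against 155 and 856 against 251 CPM (1.5, adjusted p = 1.2e-09). GDF15, a stress-induced hormone, was at 215 against 43.8 and 78.9 against 46.0 CPM (1.48, adjusted p = 9.4e-06). SPINT2, a membrane protease inhibitor of epithelia, was at 141 against 71.2 and 126 against 40.4 CPM (1.30, adjusted p = 3.6e-06). GDF15 was not past 2-fold in human replicate 2 and SPINT2 not in human replicate 1. Of 19 stress and immediate early genes tested, 1 was called higher, DNAJB1, and 0 lower.

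**Figure D2:**
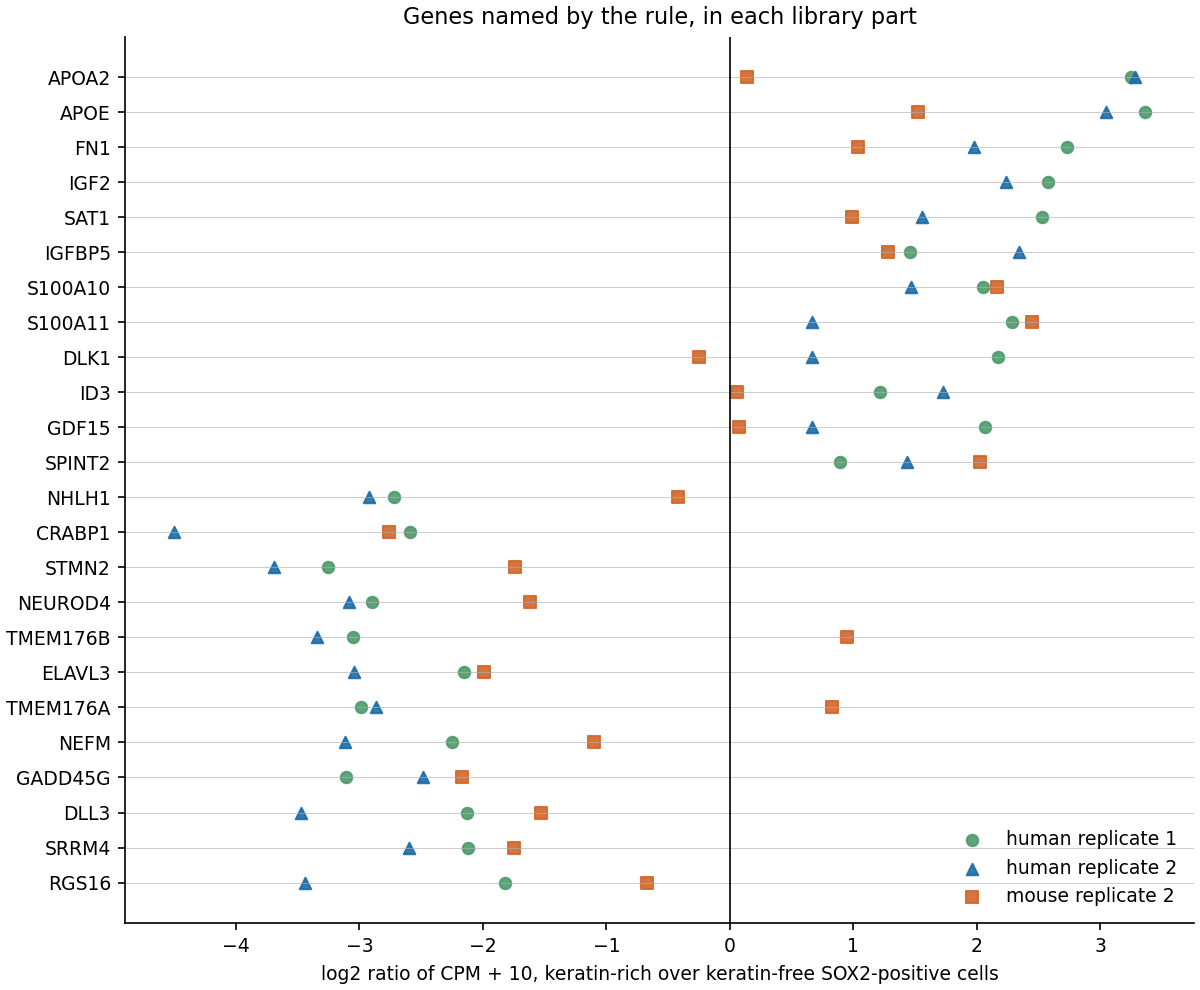
Log2 ratio of CPM with 10 CPM added, SOX2-positive keratin-rich over keratin-free cells, for the 24 genes that the naming rule chose in human, 1 point per library part. The human points lie on the same side of 0 because the rule asked for it. Mouse replicate 2, which the rule did not use, lies on the other side for TMEM176B, TMEM176A and DLK1.

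Several endoderm and epithelial calls rested on 1 cell in each line. In human replicate 1, 1 SOX2-positive member held 59.0% of all UMIs of the endoderm list in members, and in human replicate 2 another held 55.9%. APOA2, an apolipoprotein of gut and liver, was at 85.0 and 87.3 CPM with every UMI from that cell, and at 0 in the keratin-free cells and the other members of both lines. Without those cells 350 genes were called, 345 of them among the 418. FN1 then had an adjusted p of 0.25, S100A10 of 0.99 and S100A11 of 1. APOE kept a log2 fold change of 2.08 (adjusted p = 3e-11, from 3.75), the keratin KRT19 4.89 (1.2e-13, from 6.85) and the epithelial adhesion molecule EPCAM 2.09 (2.7e-07, from 2.75). All these p-values are edgeR's.

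EPCAM was present in 7 of 18 members of human replicate 1 and 24 of 51 of human replicate 2, at 45.1 against 4.49 CPM and 47.9 against 8.45 CPM. The neurons of these parts had an EPCAM UMI in 2.67% and 6.69% of cells, at 3.73 and 5.51 CPM. Their median depth of 8125.5 and 15622 UMIs was below that of the members, so these shares are not compared at equal depth. KRT19 was at 61.1 CPM from 2 cells in human replicate 1 and at 42.0 CPM from 11 cells in human replicate 2, against 0.549 and 0.310 CPM. Other epithelial genes were scarce in the SOX2-positive human members. CDH1, which codes for E-cadherin, was at 0 and 1.68 CPM, the tight-junction gene CLDN7 at 0 and 2.52 CPM, and CLDN4 at 2.66 and 1.68 CPM. Of 32 genes of the epithelial adhesion list tested, 7 were called higher and 0 lower, namely EPCAM, CLDN3, CLDN6, SPINT2, DSP, PERP and AP1M2. CLDN6 had UMIs in 1 SOX2-positive human member only. Of 7 epithelial genes (EPCAM, CDH1, CLDN3, CLDN4, CLDN6, CLDN7 and KRT19), at least 5 were found together in 0 of 18 and 1 of 51 SOX2-positive members, while 17 of 18 and 46 of 51 had 0 or 1 of them.

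The members of human replicate 2 carried floor plate transcripts. SHH was at 257 CPM (exact Poisson 95% interval 229 to 287) against 1.94 CPM in keratin-free cells and had a UMI in 35 of 51 cells. After thinning, 54.2% of members and 0.642% of keratin-free cells had one. FOXA2, the transcription factor that sets floor plate identity, was at 120 CPM (101 to 141) against 1.24 and was found in 39 of 51 cells, or 56.3% against 0.482% after thinning. Among neurons FOXA2 had a UMI in 1 of 359 cells of this part. FOXA1 was at 66.3 CPM against 1.94 and SULF1, a sulfatase that tunes SHH signalling, at 69.7 against 2.48. The guidance genes SLIT1, SPON1 and NTN1 were at 123 against 9.77, 248 against 41.9 and 106 against 17.1 CPM. Of 8 floor plate genes measured in this part, 8 were past 2-fold higher, where 1.83% of all genes measured were. The notochord, the rod of mesoderm beneath the floor plate, shares SHH and FOXA2 with it. Of 7 notochord genes measured here, 4 were past 2-fold higher and 0 lower, and the summed list was 570 CPM against 192 CPM. Besides SHH, FOXA2 and KRT19, FOXJ1, a factor of ciliated cells, was called higher in the joint fit and the glucose transporter SLC2A1 lower. The brachyury gene T had 0 UMIs in members and the notochord gene CHRD was at 2.52 against 4.42 CPM. The part of notochord cells in these values was not tested.

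This pattern was not detected in human replicate 1. SHH, FOXA2, FOXA1, SULF1 and SLIT1 had 0 UMIs in its 18 members, whose summed depth sets the Poisson upper bound at 9.79 CPM for each gene. Of 11 floor plate genes listed in this part, 10 were at 0 in members. Of the 2 with enough UMIs for a ratio, 0 were past 2-fold higher and 2 lower, where 1.15% and 3.28% of all genes were. The summed level of the list was 10.6 CPM in members and 52.4 in keratin-free cells of human replicate 1, but 1111 and 110 CPM in human replicate 2. In the joint human fit 6 of 9 floor plate genes tested were called higher, and those calls thus came from human replicate 2. NTN1 was not called (log2 fold change 1.71, adjusted p = 0.33). No test of the difference between lines was possible with 1 library each.

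Within human replicate 2, 33 of 51 SOX2-positive members had UMIs of both SHH and FOXA2, 8 had 1 of them and 10 had neither. The median depth was 19845, 22889.5 and 29045.5 UMIs in these groups, so that the cells without both genes were the deepest. SULF1 was at 117, 4.87 and 0 CPM in the same order, SPON1 at 365, 107 and 56.7 CPM and IGFBP5 at 1323, 307 and 270 CPM. KCNG1, a potassium channel subunit, was at 318, 112 and 35.5 CPM, and CD9, a tetraspanin, at 162, 48.7 and 7.09 CPM. The order was opposite for HES5 at 142, 366 and 1003 CPM, OLIG2 at 8.53, 127 and 138 CPM, FABP7 at 172, 424 and 695 CPM, and DLK1 at 15.6, 107 and 227 CPM. PAX6 was at 0, 14.6 and 49.6 CPM. KRT8 stood at 488 CPM in the cells with both genes (437 to 542) and 248 CPM in those with neither (193 to 314). These groups share 1 library and were defined on 2 of its genes, and the values are descriptions.

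Chosen the other way, SOX2-positive cells with both SHH and FOXA2 were rich in keratin in this line. The 62 such cells of human replicate 2 had KRT8 at 352 CPM (319 to 387) and KRT18 at 251 CPM, and 33 of them (53.2%) were members. The 1150 SOX2-positive cells with neither gene had 21.5 and 22.1 CPM, and 10 (0.870%) were members. In mouse replicate 2, the 20 cells with both genes had KRT8 at 147 and KRT18 at 210 CPM against 11.8 and 28.8 CPM, but only 3 and 6 of them had a UMI and 2 were members. In mouse replicate 1, 9 such cells had KRT8 at 0 and KRT18 at 21.5 CPM. Human replicate 1 had 0 cells with both genes. Its 6 SOX2-positive cells with either gene had KRT8 at 866 CPM (660 to 1114) against 29.4 CPM in the 1464 with neither, and 0 of the 6 were members.

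**Figure D3:**
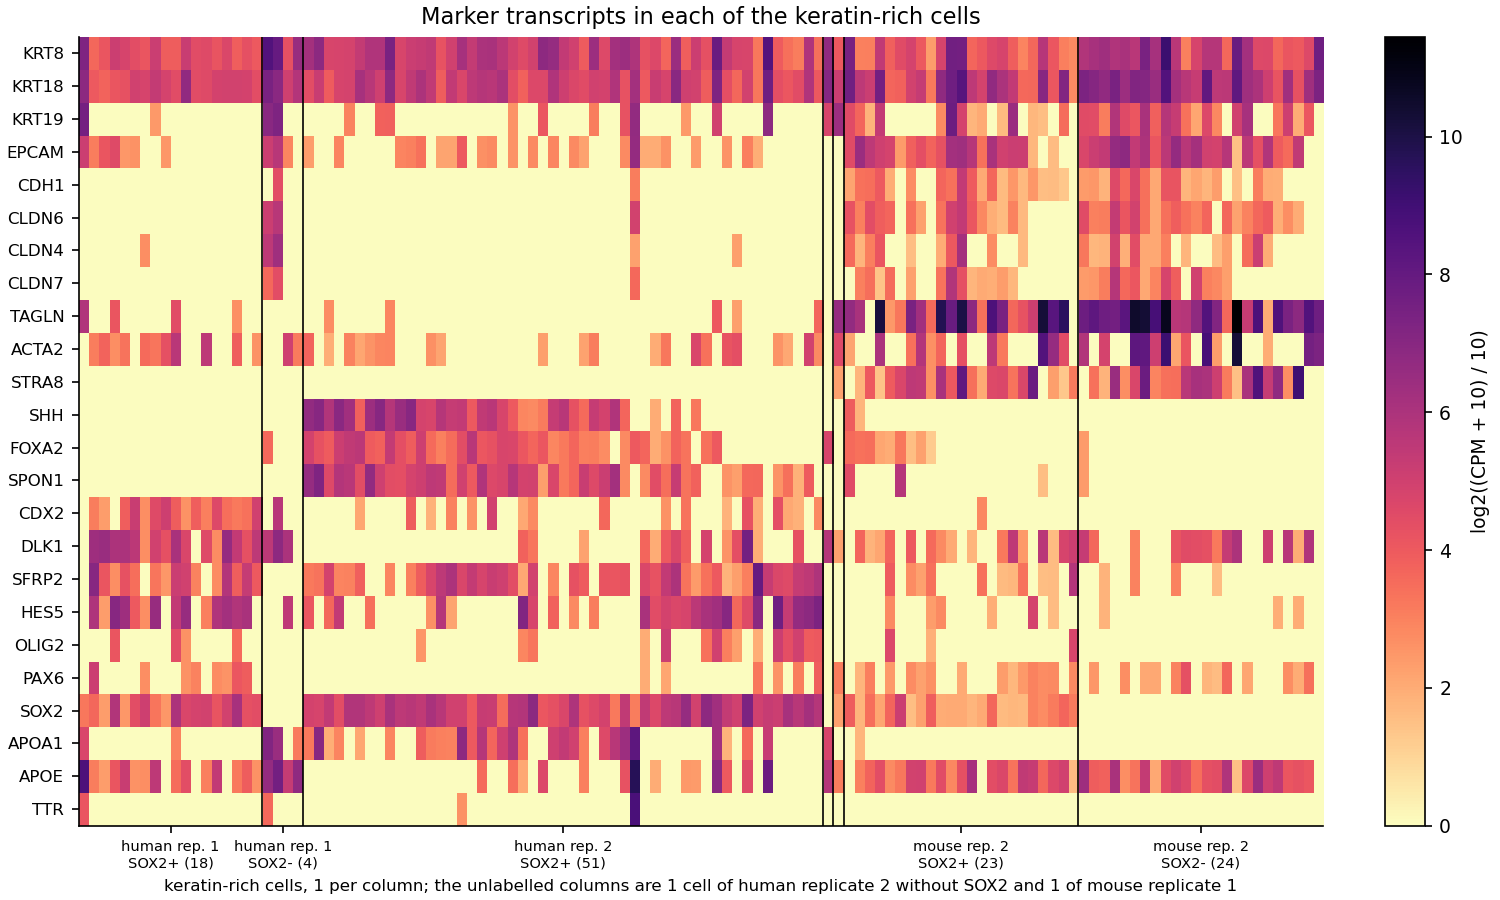
Level of 24 transcripts, as log2 of CPM with 10 added over 10, in each of the 122 keratin-rich cells, 1 per column, grouped by library part and SOX2. SHH and FOXA2 lie together in 33 cells of human replicate 2. SPON1 was found in all 33, in 5 of the 8 cells with 1 of SHH and FOXA2, and in 8 of the 10 with neither. CDX2 and DLK1 fill most cells of human replicate 1, and EPCAM, CDH1, CLDN6, TAGLN and STRA8 fill both mouse groups. SPON1 was not used in human replicate 1 and is drawn blank there.

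Further genes were far apart between the classes of human replicate 2. SERPINF1, an anti-angiogenic factor, was at 364 against 49.0 CPM. The imprinted transcript H19 was at 278 against 16.2 CPM, KCNG1 at 216 against 9.92 CPM, and NKX2-8, a homeobox gene, at 174 against 20.1 CPM. CD9 was at 106 against 1.32 CPM and CFC1, a NODAL co-receptor, at 78.9 against 2.17 CPM. APOA1 was at 195 against 2.25 CPM in 29 cells and at 132 CPM without its highest cell. VIM, the main filament of neural progenitors, was at 6394 against 4027 CPM, so transcripts of both filament types were present.

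In human replicate 1 the members carried CDX2, a caudal homeobox gene, at 135 CPM (101 to 178) against 23.2 CPM, in 16 of 18 cells. After thinning 44.4% of members and 12.3% of keratin-free cells had a CDX2 UMI. The neurons of this part, at a median depth of 8125.5 UMIs, had one in 27.8% of cells, at 55.0 CPM. In human replicate 2 CDX2 was at 31.9 against 14.7 CPM, and after thinning in 8.33% against 8.67% of cells. Neurons there, at a median of 15622 UMIs, had one in 16.7% of cells, at 24.7 CPM, so the share in members of this line is not read as a difference. The joint fit called CDX2 (log2 fold change 1.81, SE 0.36, adjusted p = 4.5e-05), the only one of 9 caudal progenitor genes tested that was called. T, which codes for brachyury and marks the earliest caudal cells, had 0 UMIs in SOX2-positive members of both lines. IRX3 was at 87.6 against 15.3 CPM, and PDLIM1, a cytoskeletal adaptor, at 457 against 132 CPM. VIM was at 940 against 3112 CPM, the opposite of human replicate 2. IGFBP6 was at 157 against 2.38 CPM, but 1 cell held most of it and the level without that cell was 21.9 CPM.

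HOXB9, a HOX gene that records position along the body axis, was at 297 against 308 CPM in human replicate 1 and 364 against 305 in human replicate 2 (adjusted p = 0.98). Of the S phase and G2/M lists, 1 of 19 genes was called lower (RRM2) and 0 of 20 in either direction.

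Crest and mesenchyme genes bear on the gate, since members had no COL1A2 and comparison cells could have it. Of 15 tested, 6 were called lower and 1 higher, TAGLN. With the comparison cells also restricted to COL1A2 0, LUM had a log2 fold change of 1.89 (adjusted p = 0.54) and TWIST1 of 1.69 (0.098), the opposite sign to their calls. Their calls thus depended on the COL1A2 condition. That condition kept 6, 8, 3 and 47 cells with both keratins out of the set. In mouse replicate 2, 16 of those 47 had exactly 1 COL1A2 UMI and 29 were SOX2-positive, and their EPCAM level was 354 CPM against 334 CPM in the cells kept. In human replicate 2 the 8 cells had EPCAM at 335 CPM against 47.7 CPM.

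**Figure D4:**
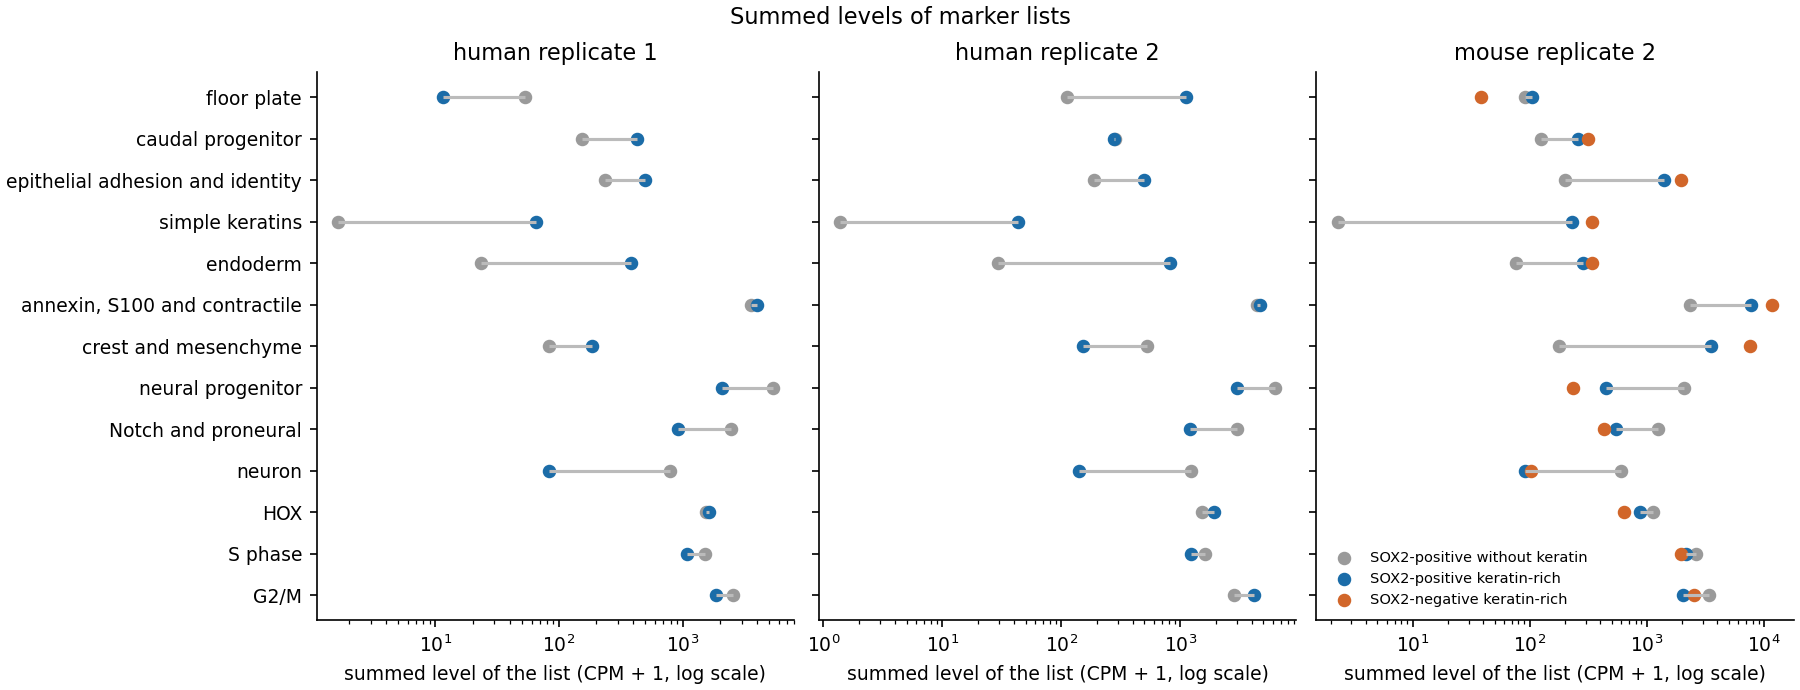
Summed CPM of 13 marker lists (with 1 added, log axis) in keratin-free SOX2-positive cells, SOX2-positive keratin-rich cells and, for mouse replicate 2, SOX2-negative keratin-rich cells. The floor plate list stands at 1111 against 110 CPM in human replicate 2 and 10.6 against 52.4 CPM in human replicate 1, and the epithelial list at 1387 and 1951 CPM in the mouse members against 201 CPM.

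In mouse, replicate 1 had 1 member, so values for mouse members come from replicate 2 and no test across mouse libraries was possible. Genes are described by size. Of 11651 genes, 262 (2.25%) were past 2-fold higher in SOX2-positive members than in keratin-free cells and 162 (1.39%) lower. The intervals are exact Poisson 95% intervals of counting error only.

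SOX2-positive members of mouse replicate 2 had, in their summed counts, the transcripts of an adhesive epithelium. Their SOX2 counts ran from 1 to 10 UMIs per cell, and exactly 1 was the most frequent count. For the cells with exactly 1 the name SOX2-positive rests on that single UMI, and whether it came from the cell itself was not tested. Those cells had 3 to 37 UMIs of EPCAM, and the cells with more SOX2 UMIs had 0 to 23. The epithelial values of the class thus draw in large part on cells with a single SOX2 UMI. EPCAM was at 264 CPM (234 to 298) against 12.1 CPM and was present in 20 of 23 cells, or in 73.9% against 6.02% after thinning. CDH1 was at 61.6 CPM against 0.318, the claudin gene CLDN6 at 77.3 against 0.273, and CLDN7 at 48.9 against 0.341. The keratins KRT19 and KRT7 were at 163 against 0.704 and 56.7 against 0.0227 CPM. KRT19 was uneven: of its 167 UMIs, the highest cells held 70, 38 and 24. Of 26 epithelial genes measured, 14 were past 2-fold higher and 0 lower, with a median log2 ratio of 1.12 beside -0.01 over all genes. At least 5 of the 7 epithelial genes counted above were found together in 14 of 23 cells. For neurons of this part the share with an EPCAM UMI was 2.64%.

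Contractile and calcium-binding genes were higher in the summed counts of these members. TAGLN, which codes for the actin-binding protein transgelin, was at 3092 against 130 CPM. Its UMIs were uneven: of 3161 in all, the highest cells held 674, 654, 507, 328 and 287. The cells with 654 and 507 had 0 UMIs of EPCAM and 1 of CDH1 each, so that high TAGLN and high EPCAM were not always in the same cell. The tropomyosin TPM1 was at 1549 against 245 CPM, the small heat shock gene HSPB1 at 451 against 13, the annexin ANXA3 at 135 against 1.23 and the calponin CNN1 at 87.1 against 3.32. Of 27 annexin, S100 and contractile genes measured, 22 were past 2-fold higher and 0 lower. Smooth muscle actin, ACTA2, was at 335 against 17.8 CPM, with 55.0% of its UMIs in 1 cell. STRA8, a gene induced by retinoic acid and known from germ cells, was at 316 CPM (282 to 352) against 15.1 CPM and was found in 21 of 23 cells. Of 23 basement membrane and matrix genes, 10 were past 2-fold higher and 0 lower. CXCL10 was at 109 CPM, and at 8.08 CPM without its highest cell.

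Neural transcripts were lower there. FABP7 was at 4.89 against 229 CPM, HES5 at 22.5 against 399, PAX6 at 32.3 against 180, and CRABP1 at 73.4 against 554. The brain creatine kinase CKB was at 124 against 862 CPM, SFRP2 at 57.7 against 250 and the neuronal tubulin TUBB3 at 11.7 against 131. Of 28 neural progenitor genes measured 21 were past 2-fold lower and 0 higher, and of 19 neuron genes 14 were past 2-fold lower and 0 higher. SOX2, which was part of the gate, was at 71.4 CPM against 157. Of 9 floor plate genes measured, 2 were past 2-fold higher and 1 lower. FOXA2 was at 19.6 CPM against 4 and past 2-fold, while SHH was at 4.89 against 1.89 CPM and NTN1 at 25.4 against 26.1. The summed floor plate list was 103 CPM against 89.9 CPM.

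The 24 SOX2-negative members of mouse replicate 2 also carried epithelial transcripts. EPCAM was at 423 CPM (379 to 471) in SOX2-negative and 264 CPM in SOX2-positive members, CDH1 at 65.1 and 61.6, CLDN6 at 104 and 77.3, and KRT19 at 220 and 163. At least 5 of the 7 epithelial genes were found together in 17 of 24 cells. Of 8130 genes measured, 85 (1.05%) were past 2-fold higher in the SOX2-negative members and 56 (0.689%) lower. Of 25 epithelial genes, 1 was past 2-fold higher and 0 lower.

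Actin-related, stress and neural genes were among those that differed between both mouse classes. Of 26 annexin, S100 and contractile genes measured, 4 were past 2-fold higher and 0 lower. Of 16 stress and immediate early genes, 4 were past 2-fold higher and 0 lower, among them the transcription factor genes JUND at 741 CPM in SOX2-negative and 307 CPM in SOX2-positive members and ATF3 at 219 and 85.1 CPM. TMSB4X, which binds free actin, was at 4605 CPM in SOX2-negative and 1621 CPM in SOX2-positive members. The galectin LGALS1 was at 1100 and 376 CPM, STRA8 at 691 and 316, and TAGLN at 5750 and 3092. WNT6, a ligand of surface ectoderm, was at 144 CPM (119 to 173) and 34.2 CPM (23.8 to 47.6), in 18 of 24 and 8 of 23 cells. ACTA2 was at 1771 and 335 CPM, ANKRD1 at 88.9 and 6.85, ACTC1 at 148 and 11.7 and KLF2 at 55.1 and 2.93, and without the highest cell of each class these stood at 987 and 159, 39.0 and 2.08, 55.1 and 3.09, and 18.5 and 1.02 CPM. Of 15 neural progenitor genes measured, 6 were past 2-fold lower and 0 higher. The cadherin CDH2 was at 12.5 and 56.7 CPM, CRABP1 at 10.0 and 73.4, SFRP2 at 8.76 and 57.7 and FABP5 at 115 and 332. The cyclin CCND2 was at 108 and 355 CPM, and PTN, a growth factor of neural tissue, at 55.1 and 223. Median depth was 31850 UMIs in SOX2-negative and 43090 in SOX2-positive members, and its part in these differences was not tested.

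The 5 SOX2-negative human members were too few for a test and were not alike. Of the 4 in human replicate 1, 1 had 9954 UMIs with 24 of KRT8, 15 of KRT19, 5 of EPCAM and 9 of ELF3, an epithelial transcription factor. Another had 8973 UMIs with 33 of KRT8, 11 of KRT19, 3 of EPCAM and 5 of ELF3. These were the 2 of the 4 cells with at least 5 of the 7 epithelial genes, CLDN4 among them at 8 and 4 UMIs and CLDN6 at 5 and 3. Their mitochondrial shares were 0.0100% and 0.178%. The other two lacked KRT19, 1 with 12869 UMIs and 14 of APOE and 1 with 15845 UMIs, 10 of DLK1 and 7 of HES5. The single cell of human replicate 2 had 3804 UMIs and held genes of skeletal muscle, with 25 UMIs of MYLPF, 24 of TNNC2, 17 of MYL1 and 13 of DES. Among the SOX2-positive members of that part, 1 cell of 5344 UMIs had 5 of MYLPF, 8 of TNNC2 and 7 of MYL1, and 1 of 6556 UMIs had 20, 12 and 17. The single member of mouse replicate 1, a SOX2-positive cell of 26136 UMIs, had 22 UMIs of KRT19, 25 of TAGLN and 0 of EPCAM, and 0.0306% mitochondrial UMIs against a median of 2.22% in keratin-free cells of that part.

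The same genes were followed at keratin counts below the threshold. In SOX2-positive cells sorted by summed KRT8 and KRT18 UMIs (0, 1, 2 to 3, 4 to 5, 6 to 9, and 10 or more), with any COL1A2 count, SHH in human replicate 2 stood at 1.94, 2.61, 20.3, 58.2, 139 and 217 CPM. FOXA2 stood at 1.24, 2.01, 5.98, 37.2, 46.8 and 126 CPM. In human replicate 1 CDX2 stood at 23.2, 40.2, 60.3, 74.7, 103 and 110 CPM, where the last bin held 15 cells. In mouse replicate 2 EPCAM stood at 12.1, 31.2, 58.0, 84.1, 112 and 279 CPM and TAGLN at 130, 225, 278, 495, 1119 and 2872 CPM. OLIG2 went from 296 to 46.6 CPM in human replicate 1, from 261 to 46.3 in human replicate 2 and from 88.4 to 7.98 in mouse replicate 2 between the first and the last bin. STMN2 did not go one way in human replicate 2, at 206, 177, 90.4, 10.5, 270 and 103 CPM, while it went from 136 to 3.33 CPM in human replicate 1. FOXA2 in human replicate 1, at 0 in the members, stood at 20 CPM in the last bin. Deeper cells reach higher bins more easily, and bins share 1 library each, so these are descriptions without a test.

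**Figure D5:**
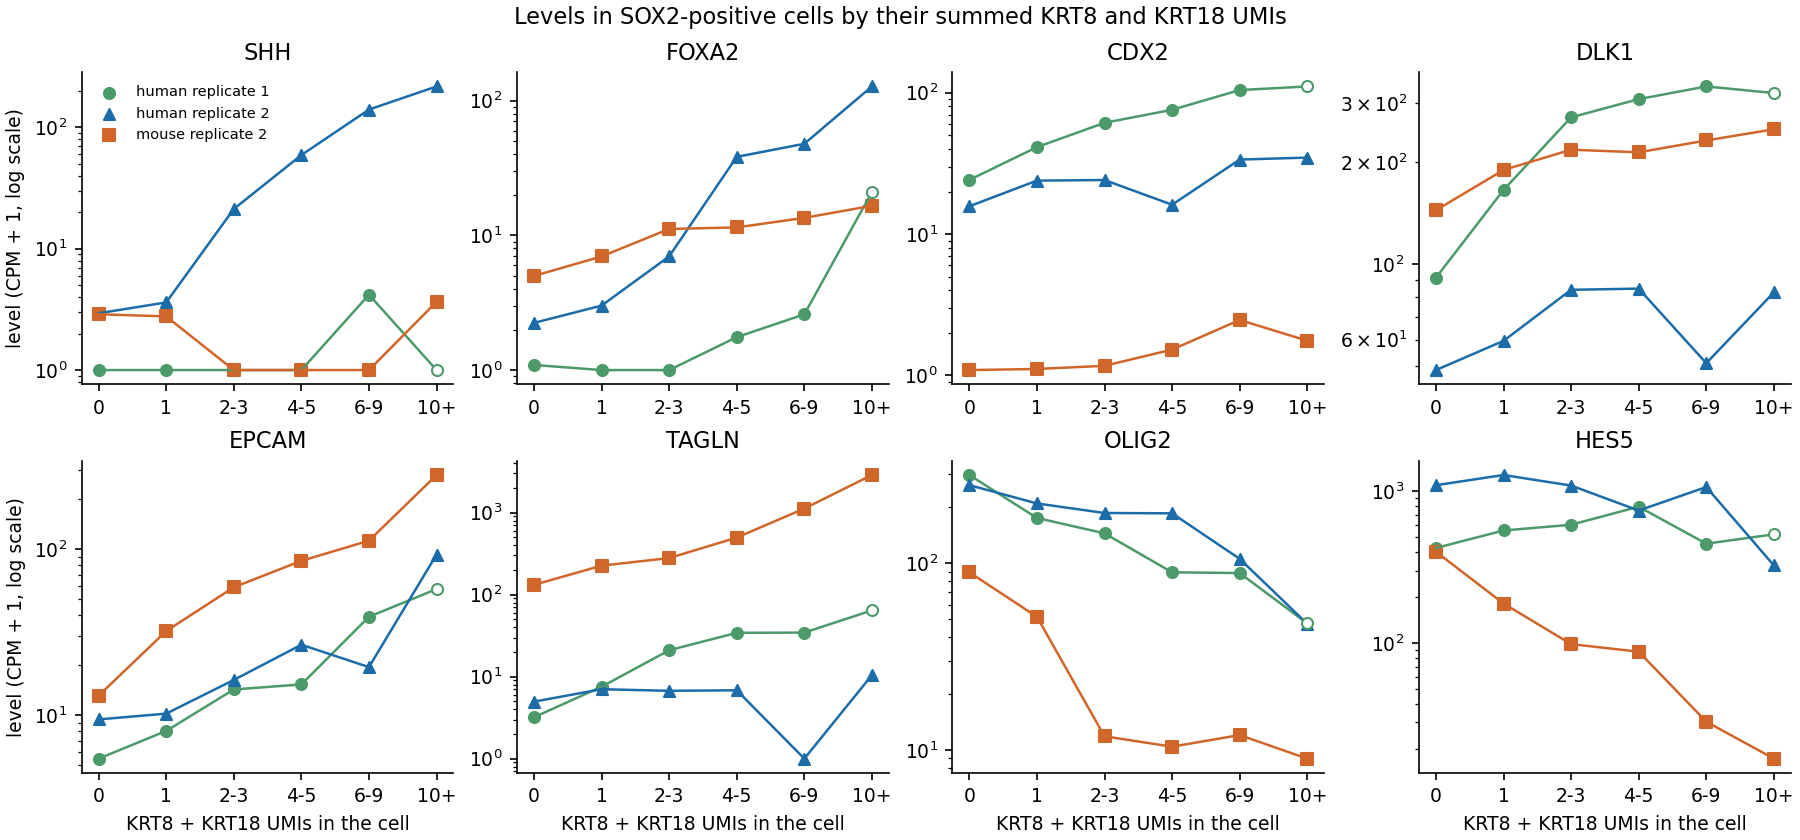
Level of 8 transcripts (CPM with 1 added, log axis) in SOX2-positive cells by their summed KRT8 and KRT18 UMIs, in 3 library parts. An open symbol marks a bin of under 20 cells. SHH and FOXA2 climb with keratin in human replicate 2, where SHH goes from 1.94 to 217 CPM, and EPCAM and TAGLN climb in mouse replicate 2.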

How the data were processed

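Droplet-based 3' single-cell RNA-seq gave 4 library parts. The authors deposited raw UMI counts per gene and cell, made with Cell Ranger 3.1.0 on mm10 and hg38 per the submitters' processing notes. The annotation and the calling of cells are not given in the sources used here.

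Symbols were upper-cased and counts of shared symbols added. Cells under 1000 UMIs, under 500 genes or over 10% mitochondrial UMIs were removed, and barcodes found in both parts of the mixed library were dropped. Counts of the 15472 symbols common to all parts were summed per part and class where a class had at least 10 cells. That left 8 sums, fitted with edgeR 4.0.16 in R 4.3.3 (TMM, filterByExpr, robust quasi-likelihood, library part as replicate block, Benjamini-Hochberg). The block pairs classes cut from the same library. KRT8, KRT18, SOX2 and COL1A2 were left out of counts of calls. Only mouse replicate 2 had 10 or more cells in the keratin-rich classes of mouse, so the planned mouse tests, the human test of SOX2-negative cells and both species interactions could not be fitted. They were replaced by a 2-fold size rule with 10 CPM added, set after the values were seen.

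Genes named were, among called genes of at least 50 CPM in the higher class and the same direction in every part, the 12 with the largest change each way, plus the markers and members of the lists described. Genes named for 1 part or for the split of human replicate 2 were chosen after their values were seen. The members and lists were chosen with earlier results of these data known. The fit was tested on simulated data for this human comparison, over 11151 genes. There it recovered 40.4% of genes changed by 2 on the log2 scale and 71.3% of those changed by 3, with 0 false calls. These rates describe the simulated data and are not error rates of the real calls, some of which rested on single cells. DESeq2 1.42.0 and the other alternatives are in the closing section. Doublets were marked with Scrublet in scanpy 1.11.5 and kept. Gene positions are from RefSeq on GRCh38 and GRCm38. Results on items withheld for evaluation are not reported here.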

Additional observations from a re-analysis of the deposited data

Results flagged for a closer look

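For 3 genes, SOX2-positive keratin-rich cells lay on opposite sides of the keratin-free cells in both human lines. The values are log2 ratios of CPM with 10 CPM added. For NTN1, which codes for the floor plate guidance cue netrin-1, the ratio was -1.09 in human replicate 1 and 2.10 in human replicate 2, a difference of 3.19. For VIM it was -1.72 and 0.67, a difference of 2.38. For ACTC1, a cardiac actin, it was -1.02 and 0.75, a difference of 1.76. 1 of the keratin-free cells of human replicate 1 held most of the ACTC1 UMIs there, and the level without it was 1.74 CPM in place of 10.3 CPM. In human replicate 2 the ACTC1 UMIs of SOX2-positive members came from 2 cells, at 9.24 CPM and at 3.38 CPM without the higher one. Each line had 1 library, and the differences were not tested.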

How the results depend on the processing

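The 418 human calls became 411 with RLE size factors, 425 without the filter on low counts, 443 in cells of 10000 to 40000 UMIs and 423 without Scrublet doublets. They became 84 with DESeq2, all among the 418. Without the replicate block 5 genes were left (APOA2, APOE, HES6, KRT19 and STMN2). Under the added rule of 2-fold in both parts 93 genes passed. Further alternatives, with comparison cells of COL1A2 0 and without the cell with the most endoderm UMIs in each part, were also chosen after seeing the data and gave 488 and 350 calls. Without that cell ANXA3 (log2 fold change -3.70, adjusted p = 0.965), CLDN6 (-2.98, 0.987), S100A11 (-0.0245, 1) and APOA2 (-2.4e-12, with no UMI left) changed sign, and with comparison cells of COL1A2 0 LUM (1.89) and TWIST1 (1.69) did. TUBB3 was at 0.455 with DESeq2 (adjusted p = 1).

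Of 92 human genes with a value per setting, 62 kept direction and call with DESeq2, 25 without the replicate block and 82 to 92 with the other settings that kept all 92. With 50 CPM added in place of 10, the 424 mouse genes past 2-fold became 90, and the 141 between both mouse classes became 16. The share difference between species was -0.105 points with at least 10 UMIs of both keratins, 2.48 with at least 2 (exact permutation p = 0.333, the smallest possible), 1.66 in cells of 10000 to 40000 UMIs, 0.394 with COL1A2 at any count and 0.00570 with the thinned gate, and ran from 0.0474 to 1.95 points when 1 part was left out, and the difference in SOX2-negative share from -41.0 to 10.1 points. The latter was -21.6 points with COL1A2 at any count (exact permutation p = 0.333) and -28.3 in cells of 10000 to 40000 UMIs. Leaving out mouse replicate 2 turned the latter to 10.1. The stricter gate and the thinned gate left under 10 SOX2-positive members in each part, and leaving out a human part left no residual degree of freedom, so no count of genes was obtained there. The gate needs 6 keratin UMIs, and shallow cells pass it less often.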
